A study of Mus musculus with 15 samples.

Results

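The libraries described here are those of mouse cerebellar granule neuron precursors at E15.5, an embryonic day, and at P7, a postnatal day, 3 libraries a group, chosen by the group name in their titles. They are 6 of the 15 libraries of an RNA-seq series that also holds precursors at P1 and P14 and a medulloblastoma group (MB). The E15.5 libraries carry the genotype label Math1-GFP, a reporter of the gene Atoh1, and the P7 libraries are labelled WT, wild type, so age and genotype label change together and cannot be told apart. P1 and P14 are wild type too, and MB is labelled as heterozygous for Ptch1, the receptor that holds the Sonic hedgehog pathway in check. The labels describe Percoll purification of cerebellar cells for the series and name no sort on GFP. No label says that the libraries of a group came from separate litters or animals. Every p-value therefore measures only the spread between libraries within groups, which may be technical. That spread was estimated over all 15 libraries of the series, those of P1, P14 and MB included. The series title places the data in a study of Ezh2, the enzyme that writes the repressive Polycomb mark H3K27me3, and of the timing of differentiation genes in these cells.

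Granule neurons are the small glutamatergic neurons of the cerebellum. Their precursors arise from the rhombic lip under the transcription factor Atoh1, spread over the surface of the cerebellum as the external granule layer, and after birth divide there in response to Sonic hedgehog made by Purkinje cells before they leave the cycle and migrate inwards. The rhombic lip of the embryo also gives rise to the glutamatergic neurons of the cerebellar nuclei, so an embryonic and a postnatal preparation differ in the lineages and neighbours they can hold as well as in the state of the precursors.

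The 6 libraries held 12597472 to 43443132 reads counted to genes. Levels are given in CPM, read counts scaled to a common library size and corrected for library composition, which serve to compare a gene between libraries and not one gene with another. Genes were called at an adjusted p under 0.05 (edgeR's quasi-likelihood test with Benjamini-Hochberg adjustment over 15259 genes), and a log2 fold change is P7 minus E15.5. At P7, 3295 genes were higher, 21.6% of those tested, and 2469 were lower, 16.2%. The counts of called genes in each list below are to be read against these shares. A change of at least 2-fold was estimated for 2446 of the genes that rose (16.0% of those tested) and for 1299 of those that fell (8.51%). The median log2 fold change over all genes tested was 0.02. The first principal component of these libraries held 75.6% of their variance and placed E15.5 between -84.6 and -79.7 and P7 between 75.8 and 89.5. Libraries were also placed in counting sets, from the gene and transcript counts of Tsnax alone. These sets are an inference, as the sources used here state no difference in counting. A fit of the 5 libraries placed in the same counting set, without E15.5 replicate 2, called 2763 genes higher and 2149 lower. In bulk RNA, fewer cells of a type and less RNA per cell cannot be told apart. Some members of each gene list below are named beyond the naming rule, and these were chosen after their values were seen.

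**Figure D1:**
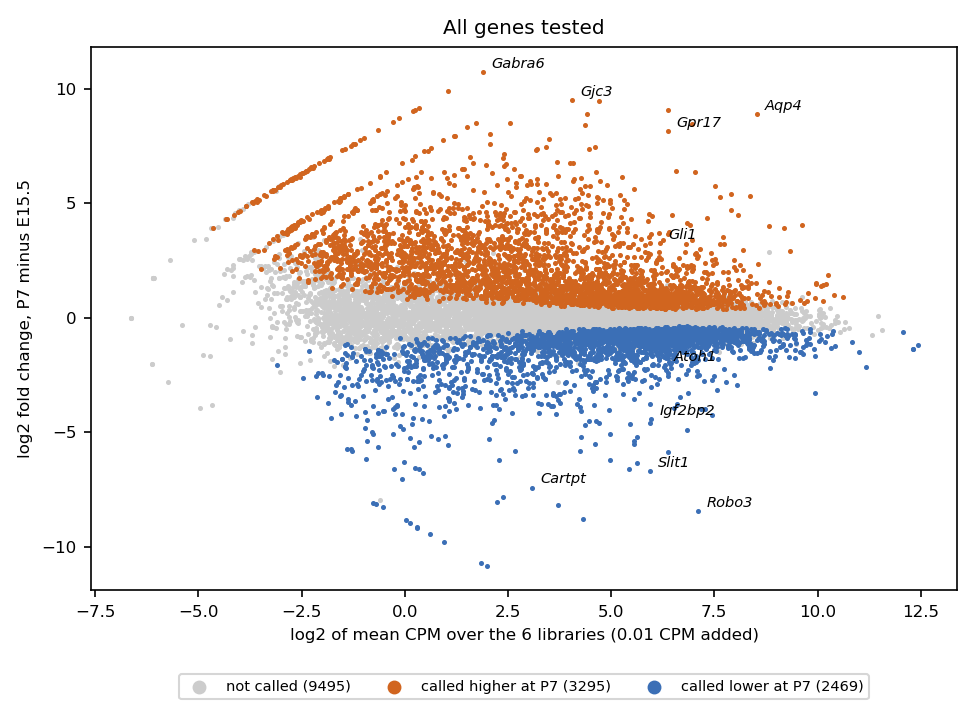
Log2 fold change of P7 over E15.5 (vertical axis) against the log2 of the mean level in CPM over the 6 libraries (horizontal axis), 1 point for each of the 15259 genes tested. The 3295 genes called higher are orange, the 2469 called lower are blue and the others grey, and the diagonal lines of points at low levels are genes with few or no counts in one group.

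The label was checked first against genes of the granule lineage. Zic1, a zinc finger factor of the lineage, was at 1115, 1317 and 883 CPM at E15.5 and 2040.5, 2182 and 1942 CPM at P7. Barhl1, a homeobox factor of the migrating precursors, was at 548, 442 and 345 CPM at E15.5 and 420.1, 298 and 486 CPM at P7, and Pax6, a factor of the rhombic lip and its progeny, at 479, 592 and 438 CPM at E15.5 and 522, 858 and 491 CPM at P7. All were present in every library of both groups. Zic1 rose (log2 fold change 0.89, SE 0.21, adjusted p = 0.00361) and its groups did not overlap, whereas Barhl1 (log2 fold change -0.15, SE 0.24, adjusted p = 0.651) and Pax6 (log2 fold change 0.31, SE 0.29, adjusted p = 0.408) did not pass the test. Atoh1, the factor that specifies the precursors, was at 124, 138 and 124 CPM at E15.5 and 23.6, 39.1 and 29.2 CPM at P7. It fell (log2 fold change -2.07, SE 0.29, adjusted p = 6.23e-05), and every P7 library was below every E15.5 library. The gene lies on chromosome 6 from 64679140 to 64681227 on the plus strand (mm9).

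Markers of other cerebellar cells moved between the groups as well. Of 11 astroglial genes tested, 11 rose, against 21.6% of all genes. Gfap, a filament protein of astrocytes, was at 1.09, 0.585 and 0.473 CPM at E15.5 and 316, 243 and 179 CPM at P7, and Aqp4, their water channel, at 1.96, 1.34 and 1.34 CPM at E15.5 and 1038, 795 and 369 CPM at P7. The summed level of the astroglial list was 413 to 560 CPM at E15.5 and 2495 to 4879 CPM at P7. Of 12 oligodendrocyte genes, 11 rose, and their sum went from 101 to 126 CPM to 1157 to 2307 CPM. Sox10, a transcription factor of that lineage, was at 0.305, 0.251 and 0.236 CPM at E15.5 and 55.9, 41.3 and 34.2 CPM at P7. Microglial genes rose in 11 of 12 cases (10.6 to 35.3 CPM at E15.5 and 73.1 to 195 CPM at P7), endothelial genes in 8 of 8 (19.1 to 42.4 CPM at E15.5 and 313 to 379 CPM at P7) and genes of pericytes and fibroblasts in 9 of 9 (27.9 to 46 CPM at E15.5 and 446 to 736 CPM at P7). None of the markers on these 5 lists was at 0 in all libraries of either group. The choroid plexus list varied within both groups, 97.6 to 386 CPM at E15.5 and 52.6 to 2038 CPM at P7, with P7 replicate 3 highest and P7 replicate 1 lowest of all 6 libraries.

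Markers of neurons that are not granule neurons moved in both directions. Of 9 genes of GABAergic interneurons, 4 fell and 1 rose, the summed levels being 849.7 to 1032 CPM at E15.5 and 385 to 562 CPM at P7. Slc32a1, the vesicular GABA transporter, was at 116, 89.9 and 144 CPM at E15.5 and 41.5, 25.4 and 41.9 CPM at P7 and fell (log2 fold change -1.69, SE 0.25, adjusted p = 0.000106). Of 9 Purkinje genes, 4 rose and 2 fell. Itpr1, the calcium release channel abundant in Purkinje cells, rose from 9.15 ± 3.86 to 96.8 ± 63.1 CPM (mean ± SD, n = 3 a group), while Foxp2, a transcription factor of Purkinje cells, fell from 333 ± 67.9 to 17.7 ± 2.82 CPM and Skor2, another, from 52.6 ± 9.55 to 5.11 ± 3.00 CPM. Of 6 markers of glutamatergic nuclear neurons, 4 fell and none rose (none by DESeq2 or at an unadjusted p under 0.05 either), the summed levels being 183 to 438 CPM at E15.5 and 105 to 176 CPM at P7. Leaving out P7 replicate 1 moved Itpr1 from a log2 fold change of 3.42 to 2.77. Whether these cells contribute to the gene groups described next was not tested, and their sums are given again beside groups whose genes they are known to express.

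**Figure D2:**
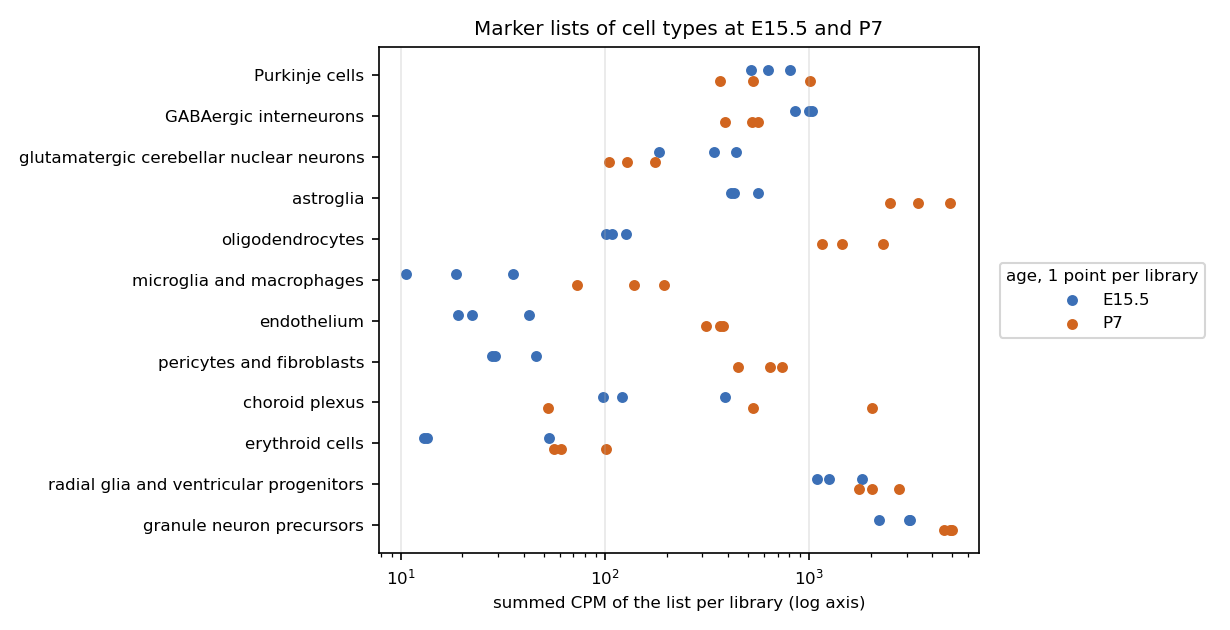
Summed level of each marker list (horizontal axis, CPM, log scale) in each of the 3 E15.5 and 3 P7 libraries, 1 point a library, E15.5 in blue and P7 in orange. The sums of astroglial, oligodendrocyte, microglial, endothelial and pericyte genes do not overlap between the groups and are higher at P7, the sums of nuclear neuron and interneuron genes are lower at P7, and the choroid plexus sum overlaps.

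The genes that rose most, among those with a mean of at least 5 CPM and groups that did not overlap, were led by Gjc3, a gap junction protein of myelinating glia. It was at 0.0872, 0 and 0.0263 CPM at E15.5 and 44.9, 27.6 and 27.1 CPM at P7, and the ratio of its scaled counts was 818 (95% counting interval 280 to 3967). Of the 12 genes at the top of that order, Gpr37l1, Aqp4, Gfap, Agt, Mobp, Neu4, Gpr17, Fam107a and Nkx2-2 are known from astrocytes or the oligodendrocyte lineage, whose marker sums rose as given above. The remaining members were Mndal (0.0669 ± 0.0941 to 52.1 ± 29.3 CPM) and Ifi203 (0.143 ± 0.133 to 41.3 ± 29 CPM), interferon-inducible genes of 1 family whose similar sequences make the split of reads between them uncertain. Nkx2-2, a factor of oligodendrocyte precursors, was at 0.0872, 0 and 0.184 CPM at E15.5 and 22.4, 20.8 and 20.5 CPM at P7. With E15.5 replicate 1 left out, the log2 fold changes of Gjc3, Gpr37l1, Mobp, Neu4, Mndal and Ifi203 moved from 9.51, 9.08, 8.88, 8.49, 9.47 and 8.42 to 10.43, 9.86, 9.84, 11.40, 11.08 and 9.78. With E15.5 replicate 3 left out, Mobp, Neu4, Mndal, Ifi203 and Nkx2-2 stood at 7.87, 7.55, 8.77, 7.45 and 8.41. Fam107a was at 7.07 without P7 replicate 1 and Ifi203 at 7.67 without P7 replicate 2, and all of these genes stayed called.

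By the same criteria the largest fall was that of Robo3, a receptor that lets axons and migrating neurons cross the midline. It was at 338, 189 and 295 CPM at E15.5 and 0.614, 0.690 and 1.08 CPM at P7 (log2 fold change -8.45, SE 0.98, adjusted p = 1.25e-05), and every E15.5 library was far above every P7 library. The gene lies on chromosome 9 from 37223630 to 37240748 on the minus strand (mm9). Slit1, a repulsive ligand of Robo receptors, was at 132, 129 and 103 CPM at E15.5 and 1.64, 0.800 and 1.04 CPM at P7. Meis2, a homeobox factor of nuclear neuron precursors, was at 95, 143 and 55.7 CPM at E15.5 and 0.994, 1.30 and 1.31 CPM at P7, and Lhx9, a LIM factor of the same cells, at 119.9, 34.3 and 31.6 CPM at E15.5 and 0.672, 0.911 and 0.886 CPM at P7. Both were near 1 CPM or below in most P7 libraries. Cartpt (16.8 ± 7.70 to 0.0984 ± 0.0497 CPM) and Sst (84.9 ± 29.8 to 0.875 ± 0.156 CPM) encode neuropeptides, and Pou4f2 (10.4 ± 7.54 to 0.0452 ± 0.0402 CPM) a POU homeobox factor known from sensory neurons. Lamp5 (37.4 ± 17.7 to 0.678 ± 0.314 CPM), Cdhr1 (165 ± 16 to 2.86 ± 1.77 CPM), Msx3 (12.4 ± 6.33 to 0.221 ± 0.0901 CPM), Myh8 (47.9 ± 20.3 to 1.05 ± 0.268 CPM) and Thsd7b (92.2 ± 5.21 to 2.05 ± 0.966 CPM) completed the 12, all as mean ± SD over 3 libraries. Without E15.5 replicate 1 the log2 fold change of Lhx9 went from -6.23 to -5.32 and that of Pou4f2 from -7.82 to -7.05, the latter being -7.20 without P7 replicate 2.

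The 250 bases before the start of Gjc3 and of Robo3 are shown because these genes lead the 2 directions, and they differ in their content of CG pairs, which are in capitals. They were taken from RefSeq on build GRCm38.p6 and are written 5′ to 3′ on the strand of the gene, chr5:137963099-137963348 for Gjc3 and chr9:37433176-37433425 for Robo3, both on the minus strand. The Gjc3 stretch holds 3 CG pairs and the Robo3 stretch 12, and their ratios of observed to expected CG pairs are 0.204 and 0.561.
Gjc3: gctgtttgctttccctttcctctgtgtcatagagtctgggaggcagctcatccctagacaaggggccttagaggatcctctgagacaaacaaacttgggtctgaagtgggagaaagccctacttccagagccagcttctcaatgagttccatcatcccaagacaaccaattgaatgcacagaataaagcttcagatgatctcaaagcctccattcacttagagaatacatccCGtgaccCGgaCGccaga
Robo3: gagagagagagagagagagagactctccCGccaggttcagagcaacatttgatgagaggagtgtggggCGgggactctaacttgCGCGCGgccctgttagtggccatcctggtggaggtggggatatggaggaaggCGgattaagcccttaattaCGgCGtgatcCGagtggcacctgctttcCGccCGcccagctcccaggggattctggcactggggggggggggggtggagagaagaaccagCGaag
No methylation or binding data of these stretches were used. Promoters in the RefSeq table were matched for 11565 of the 15259 genes tested, under 80%. No conclusion is therefore drawn about the promoters of the called genes as a set.

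In the Sonic hedgehog pathway, the targets Gli1, Ptch1 and Hhip rose and the target Mycn did not pass the test. Binding of the ligand to Ptch1 frees Smo, which lets the Gli factors switch on a small set of direct targets, among them Gli1, Ptch1 and Hhip. Gli1, the target most often used as a readout, was at 16, 15.1 and 10.2 CPM at E15.5 and 115, 129.7 and 147 CPM at P7 (log2 fold change 3.25, SE 0.41, adjusted p = 2.42e-05). All P7 libraries were above all E15.5 libraries, and the gene lies on chromosome 10 from 126766945 to 126778645 on the minus strand (mm9). Ptch1 was at 105, 129 and 53.9 CPM at E15.5 and 265, 252 and 340.1 CPM at P7 (log2 fold change 1.58, SE 0.29, adjusted p = 0.000654). Hhip, a decoy receptor induced by the pathway, was at 0.436, 0.334 and 0.630 CPM at E15.5 and 11.2, 12.9 and 12.4 CPM at P7 (log2 fold change 4.61, SE 0.43, adjusted p = 2.04e-06). None of these groups overlapped.

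Of the 15 pathway genes tested, 7 rose and 1 fell, with a median log2 fold change of 1.01 against 0.02 over all genes. Among the transducers, Gli2 went from 62.6 ± 27.5 to 167 ± 31.3 CPM and Sufu, the inhibitor that binds Gli factors, from 88.4 ± 22.8 to 178 ± 34.6 CPM, and both rose. Sfrp1, a secreted Wnt antagonist with ties to hedgehog signalling, rose from 130.4 ± 25.8 to 408 ± 36.3 CPM, and Hhatl, a relative of the enzyme that lipidates the ligand, from 0.207 ± 0.0359 to 1.64 ± 1.05 CPM. Cdon, a coreceptor for the ligand, was the member that fell, from 31.8 ± 6.28 to 8.65 ± 3.32 CPM (log2 fold change -1.88, SE 0.32, adjusted p = 0.000323). Smo (0.40), Boc (0.46), Gas1 (-0.85), Gli3 (0.29) and Shh itself (1.45) did not pass the test, values in parentheses being log2 fold changes. Gas1 was called by DESeq2 and in the fit of these groups alone, and Shh without P7 replicate 2. Mycn, a target through which the pathway drives division, was at 153, 147 and 172 CPM at E15.5 and 149.6, 163 and 169 CPM at P7, with a log2 fold change of 0.03 that did not pass the test. The direction of Mycn turned to -0.01 without P7 replicate 3 and to -0.02 without E15.5 replicate 2. Without P7 replicate 1 the log2 fold change of Hhatl was 2.24.

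Among genes of the cell cycle, 10 of 32 rose, against 21.6% of all genes, and 21 did not pass the test. Ccnd2, the D-type cyclin of granule precursors, was at 578, 612 and 469 CPM at E15.5 and 903, 909.9 and 1724 CPM at P7 (log2 fold change 1.09, SE 0.25, adjusted p = 0.00349), with no overlap between the groups. Mki67, the proliferation antigen, was at 708, 813 and 339 CPM at E15.5 and 1314, 2149.9 and 1709 CPM at P7 (log2 fold change 1.48, SE 0.32, adjusted p = 0.00217). Top2a, the topoisomerase of dividing cells, rose from 391 ± 43 to 854 ± 125 CPM, Cenpe, a kinetochore motor, from 79.1 ± 27.1 to 193 ± 35 CPM, and Cdk6, a partner of D-type cyclins, from 7.30 ± 3.53 to 27.7 ± 11.6 CPM. The count that fell was 1, and the median log2 fold change of the list was 0.36. Those that rose included Ccna2, E2f2 and Foxm1, the last a call lost without E15.5 replicate 3, and Cdc25c, a call lost in 7 of the alternatives. The replication licensing genes Mcm2, Mcm3, Mcm5, Mcm6 and Mcm7 did not pass the test, their log2 fold changes lying between -0.22 for Mcm6 and 0.13 for Mcm3. Ccnd1, the other D-type cyclin much studied in these cells, was at 193, 185 and 172 CPM at E15.5 and 197, 209 and 305 CPM at P7 and did not pass the test (log2 fold change 0.37, SE 0.34, adjusted p = 0.406). Cdk4 was the member that fell (log2 fold change -0.80, SE 0.26, adjusted p = 0.0261), a call lost without any 1 of the P7 libraries or without E15.5 replicate 3.

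Inhibitors of the cycle moved in opposite directions. Cdkn1b (p27), which sets the exit of granule precursors from the cycle, was at 125, 130.5 and 102 CPM at E15.5 and 284, 271 and 204 CPM at P7 (log2 fold change 1.09, SE 0.18, adjusted p = 0.000239). Cdkn2c (p18) was at 13.1, 15.2 and 16.1 CPM at E15.5 and 69.2, 54 and 44 CPM at P7 (log2 fold change 1.91, SE 0.21, adjusted p = 8.12e-06). Both had groups that did not overlap. Cdkn1c (p57), an imprinted inhibitor, was at 287, 157 and 349 CPM at E15.5 and 34.2, 36.2 and 48 CPM at P7 and fell (log2 fold change -2.74, SE 0.30, adjusted p = 7.13e-06). Of 8 inhibitors and pocket proteins tested, 5 rose and 1 fell, the others that rose being Cdkn1a, Rbl1 and Rbl2. The call of Rbl1 (0.71) was lost in 5 alternatives, among them the leaving out of P7 replicate 2, E15.5 replicate 1 or E15.5 replicate 3. The call of Cdkn1a (log2 fold change 0.86) was lost without P7 replicate 3 or without E15.5 replicate 1.

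Transcription factors of the granule lineage did not move as 1 group. Of 24 tested, 7 rose and 6 fell, with a median log2 fold change of 0.30. Neurod1, the factor of early differentiation, was at 523, 654 and 422 CPM at E15.5 and 1369, 1868 and 1146 CPM at P7 (log2 fold change 1.46, SE 0.29, adjusted p = 0.00136). The P7 libraries were all higher. Barhl2, a relative of Barhl1, rose from 16.6 ± 8.21 to 103 ± 24 CPM, Insm1, a zinc finger factor of neurogenic divisions, from 157 ± 50.1 to 471 ± 158 CPM, and Klf4, a Krüppel-like factor, from 6.05 ± 1.00 to 45.3 ± 20.3 CPM. Lhx1 and Zic4 rose as well, the call of Zic4 being lost within 1 counting set. Besides Atoh1 and Meis2, members that fell included Neurod6 (184 ± 28.1 to 65 ± 22.6 CPM), Pbx3 (138 ± 17.6 to 54.9 ± 10.02 CPM) and Mab21l1 (499.8 ± 49.4 to 271 ± 36.9 CPM). Zic2 (0.32) and Zic5 (0.29) did not pass the test.

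Of 4 nuclear factor I genes, 4 rose. These factors bind a shared palindrome and are known to drive the late steps of granule neuron differentiation and of gliogenesis. Nfix was at 183, 183 and 90.2 CPM at E15.5 and 1008, 772 and 1648 CPM at P7 (log2 fold change 2.91, SE 0.42, adjusted p = 7.98e-05). Nfia was at 285, 278 and 125 CPM at E15.5 and 491, 426 and 1105 CPM at P7 (log2 fold change 1.55, SE 0.39, adjusted p = 0.00593). Nfic went from 53.1 ± 20.8 to 313 ± 151 CPM and Nfib from 608 ± 111 to 1645 ± 455 CPM. In each of the 4 the lowest P7 library was above the highest E15.5 library. Astroglia express these factors too, and the astroglial sum moved with them, from 413 to 560 CPM to 2495 to 4879 CPM. Its part in their rise was not tested.

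**Figure D3:**
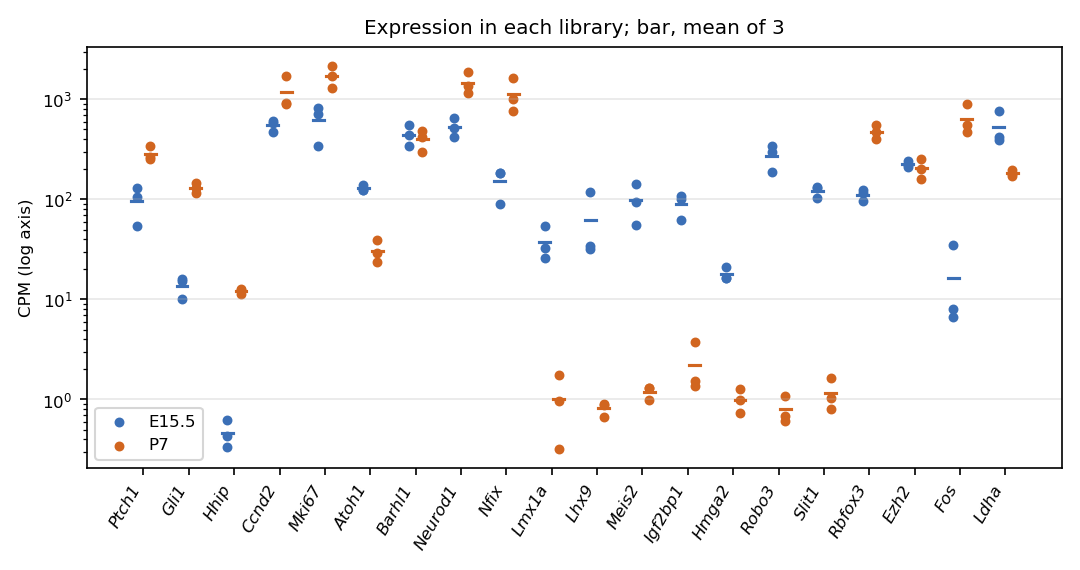
Level of 20 genes (vertical axis, CPM, log scale) in each of the 3 E15.5 libraries (blue) and 3 P7 libraries (orange), 1 point a library, with a bar at the group mean. Gli1, Ptch1, Nfix and Fos are higher in every P7 library, Robo3, Meis2, Igf2bp1 and Hmga2 are lower in every P7 library, and Barhl1 and Ezh2 overlap between the groups.

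Of 17 factors of the rhombic lip and of its nuclear neuron lineage tested, 9 fell and 3 rose, with a median log2 fold change of -1.09. Lmx1a, a LIM factor of the roof plate and rhombic lip, was at 32.7, 54.3 and 26 CPM at E15.5 and 0.321, 0.966 and 1.77 CPM at P7 (log2 fold change -5.22, SE 0.59, adjusted p = 9.6e-06). Tbr1, a T-box factor of medial nuclear neurons, fell from 25.2 ± 16.7 to 1.92 ± 0.393 CPM, and Lhx2, which marks nuclear neurons together with Lhx9, from 44.6 ± 44.3 to 3.15 ± 0.399 CPM. Eomes, a T-box factor of the rhombic lip and unipolar brush cells, fell from 125 ± 44.4 to 58.9 ± 12.9 CPM, a call lost within 1 counting set, and Olig3, a factor of the dorsal hindbrain, from 25.9 ± 0.342 to 6.05 ± 2.16 CPM. Wnt1, the ligand of the midbrain and hindbrain boundary, had 160 counts over the E15.5 libraries and 2 over the P7 libraries, a ratio of scaled counts of 106 (95% counting interval 28.8 to 880). Its log2 fold change went from -6.32 to -8.84 without P7 replicate 1. Among the 3 that rose were Olig2, a factor of the oligodendrocyte lineage (11.5 ± 5.72 to 41.4 ± 10.6 CPM), and Barhl2. The oligodendrocyte sum rose with Olig2, and its part was not tested. Meis2, Lhx2, Lhx9 and Tbr1 also stand among the nuclear neuron markers above, so the 2 counts share genes. Leaving out P7 replicate 3 put Lmx1a at -5.85 and leaving out E15.5 replicate 1 put Lhx2 at -2.59 and Lhx9 at -5.32.

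Hox genes, which pattern the hindbrain behind the cerebellum and the spinal cord, were scarce. Of 20 in the gene table, 5 passed the filter on low counts and all 5 were lower at P7, where they were so low that they could pass only through other groups. Hoxb3 had 197 counts at E15.5 and 2 at P7, a ratio of scaled counts of 130 (95% counting interval 35.6 to 1082). Hoxa3 had 89 and 1 counts, a ratio of 118 (20.6 to 4696), and its log2 fold change went from -6.15 to -7.94 without P7 replicate 3. At E15.5 Hoxb3 was at 2.36, 1.34 and 3.34 CPM. Hoxb5 did not pass the filter. With a stricter filter on low counts none of the Hox genes was tested, nor was Wnt1. Among genes of catecholamine synthesis, which mark the locus coeruleus and related hindbrain nuclei, Th, the rate-limiting enzyme, was at 10.3, 6.10 and 12.3 CPM at E15.5 and 0.117, 0.110 and 0.154 CPM at P7 (log2 fold change -6.21, SE 0.43, adjusted p = 2.22e-07). Its cofactor gene Gch1 fell from 13 ± 4.19 to 1.20 ± 0.119 CPM, while Ddc, the decarboxylase, rose from 0.438 ± 0.155 to 5.20 ± 1.65 CPM. Of the 6 catecholamine genes tested, 3 fell and 1 rose.

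Of 14 oncofetal and imprinted growth genes tested, 6 fell and 2 rose. Igf2bp1, which binds and protects growth-related messages in embryonic tissue, was at 101, 109 and 62.8 CPM at E15.5 and 1.52, 1.35 and 3.74 CPM at P7 (log2 fold change -5.38, SE 0.64, adjusted p = 1.54e-05), and its paralogue Igf2bp2 at 123, 139.8 and 97.4 CPM at E15.5 and 4.91, 5.16 and 6.70 CPM at P7 (log2 fold change -4.43, SE 0.32, adjusted p = 2.4e-07). Both were far lower in all P7 libraries. Igf2bp1 lies on chromosome 11 from 95818477 to 95867254 on the minus strand (mm9). Lin28b, which blocks the maturation of let-7 microRNAs, was at 26.4, 30.9 and 16.3 CPM at E15.5 and 1.72, 3.42 and 2.04 CPM at P7. Hmga2, a let-7 target that binds AT-rich DNA, was at 16.4, 21 and 16.4 CPM at E15.5 and 0.731, 0.993 and 1.27 CPM at P7. Both fell, Lin28b by 3.35 and Hmga2 by 4.17 on the log2 scale, and their groups did not overlap. The other 2 that fell were Igf2bp3 (52.5 ± 5.50 to 16.4 ± 4.09 CPM) and Cdkn1c. Igf2 (22.1 ± 8.48 to 228 ± 16.3 CPM) and Igf1 (2.37 ± 0.766 to 15.7 ± 6.21 CPM), the insulin-like growth factors, rose. Both are also made by cells of vessels, meninges or microglia, and the endothelial sum (19.1 to 42.4 CPM at E15.5 and 313 to 379 CPM at P7) and the pericyte sum (27.9 to 46 CPM at E15.5 and 446 to 736 CPM at P7) moved with them, in a part that was not tested. Without P7 replicate 3 the log2 fold change of Igf2bp1 was -5.98.

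Axon guidance and migration genes fell more often than they rose. Of 30 tested, 12 fell, against 16.2% of all genes, and 7 rose, a share near the 21.6% of all genes. The median log2 fold change was -0.59. Over the alternatives the number that fell lay between 8 and 18. In the transcript table, where 27 were tested, 7 rose and 8 fell. The calls of Robo1 and Unc5c, both lower at P7, were lost in many alternatives, among them the replicate block and the transcript table. Besides Robo3 and Slit1, the repulsive ligand Slit2 fell from 77.3 ± 16.4 to 21.5 ± 4.12 CPM, Sema3a, a secreted semaphorin, from 93 ± 11.3 to 19.1 ± 1.63 CPM, Plxna4, a semaphorin receptor, from 83 ± 38.5 to 13 ± 5.99 CPM, and Unc5a, a netrin receptor, from 77.6 ± 14.7 to 12.5 ± 1.45 CPM. Epha4, an ephrin receptor (92.1 ± 15.2 to 19.5 ± 5.81 CPM), and Dab1, the adaptor of the reelin receptors (143 ± 22.2 to 42.5 ± 1.64 CPM), fell too. In the other direction, Unc5b, a second netrin receptor, rose from 37.5 ± 9.20 to 136 ± 32.1 CPM and the netrin ligand Ntn1 from 62.8 ± 13.9 to 161 ± 6.85 CPM. Sema6a and its receptor Plxna2, known for their part in granule cell migration, went from 278 ± 114 to 613 ± 304 CPM and from 118 ± 34.6 to 304 ± 40.1 CPM, and both rose. The call of Sema6a was lost with a replicate block, in the fit of these groups alone and without P7 replicate 3 or E15.5 replicate 3. Cntn2 (TAG-1), an adhesion molecule of postmitotic granule cells in the deep external layer, was at 805, 601 and 399.6 CPM at E15.5 and 1791, 1055 and 1913 CPM at P7 (log2 fold change 1.40, SE 0.51, adjusted p = 0.0431). Its call was lost with the replicate number as a block, with a correction for exon length, and without P7 replicate 1 or 3 or E15.5 replicate 2 or 3, where the log2 fold change lay between 1.01 and 1.40.

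Of 30 genes of the mature granule neuron tested, 7 rose and 4 fell, shares near the 21.6% and 16.2% of all genes, with a median log2 fold change of 0.35. Gabra6, the GABA-A subunit that marks mature granule neurons, had no count in any E15.5 library and 761 in the P7 libraries, where it was at 10.3, 9.49 and 2.54 CPM, at least 192-fold higher against a floor of 3 counts over the E15.5 group. Gabrd, its extrasynaptic partner, rose from 0.0466 ± 0.0439 to 3.99 ± 0.575 CPM. Rbfox3 (NeuN), a splicing regulator of postmitotic neurons, was at 123, 116 and 96.5 CPM at E15.5 and 406, 471 and 551 CPM at P7 (log2 fold change 2.09, SE 0.37, adjusted p = 0.000493). The P7 libraries were all higher. Slc17a7, the vesicular glutamate transporter of mature granule neurons, rose from 16.4 ± 2.45 to 77.7 ± 6.76 CPM. Cbln3, a secreted partner of Cbln1, was at 2.75, 3.42 and 2.42 CPM at E15.5 and 15.1, 11.6 and 9.01 CPM at P7 and did not pass the test (log2 fold change 2.08, SE 0.85, adjusted p = 0.0654), although it did in the fit of these 2 groups alone (2.07) and within 1 counting set (2.23). Members that fell included Syt1, the calcium sensor of synaptic release (402 ± 103 to 151 ± 23.9 CPM), Gabrb2 (73.4 ± 9.73 to 31.1 ± 8.47 CPM) and Grin2c. Syp (0.14), Vamp2 (-0.11) and Snap25 (0.69), further synaptic genes, did not pass the test, though Snap25 did within 1 counting set and in the fit of these groups alone. Grin2c is described with the other glutamate receptors below.

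The subunits of GABA-A receptors, the chloride channels of fast inhibition, moved in both directions. Of 15 tested, 6 rose and 4 fell, with a median log2 fold change of -0.01 that was above 0 in 6 alternatives. Besides Gabra6 and Gabrd, Gabrb1 rose from 1.47 ± 0.704 to 12.8 ± 1.85 CPM, and Gabra4, Gabrg1 and Gabrg3 rose as well. Gabra3, an alpha subunit of the embryonic brain, fell from 46.2 ± 8.68 to 16.1 ± 4.33 CPM and Gabra5 from 4.58 ± 1.82 to 1.13 ± 0.286 CPM, together with Gabrb2. Among ionotropic glutamate receptor subunits, 8 of 18 rose and 3 fell, with a median of 0.63. The AMPA receptor subunits Gria1 (48.6 ± 4.94 to 199 ± 79.5 CPM), Gria2 (272 ± 98.9 to 540.2 ± 57.7 CPM) and Gria4 (62.9 ± 12.7 to 253 ± 36.5 CPM) rose. The kainate subunit Grik3 fell from 216 ± 102 to 59.7 ± 9.15 CPM. Of the NMDA receptor subunits, Grin2b, the one of immature neurons, was at 20.6, 33.9 and 6.12 CPM at E15.5 and 48, 36.3 and 145 CPM at P7 (log2 fold change 1.94, SE 0.63, adjusted p = 0.0255), and Grin2c, the one of mature granule neurons, at 47.9, 36.9 and 32.7 CPM at E15.5 and 6.40, 3.75 and 5.66 CPM at P7 (log2 fold change -2.89, SE 1.03, adjusted p = 0.0374). The call of Grin2b was lost with a replicate block and without P7 replicate 3 (1.08), E15.5 replicate 1 (1.96) or E15.5 replicate 3 (1.45). That of Grin2c was lost when any 1 of the 6 libraries was left out, at log2 fold changes of -3.10 to -2.70, and that of Grik1 in 6 settings, so that 1 subunit was called lower without P7 replicate 1 or 3 or without E15.5 replicate 2 or 3. Without E15.5 replicate 2 the log2 fold change of Grin2b was 2.52. Astroglia and oligodendrocyte precursors express Gria4, Gabrg1 and Gabrb1 too, and their marker sums rose as given above, in a part that was not tested.

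Among Polycomb genes, the subject of the series title, the enzyme itself did not pass the test. Ezh2, the methyltransferase of Polycomb repressive complex 2, was at 209.7, 220.2 and 244 CPM at E15.5 and 159, 254 and 204 CPM at P7 (log2 fold change -0.13, SE 0.18, adjusted p = 0.6). Its paralogue Ezh1, known from nondividing cells, was at 23.9, 22.9 and 21.5 CPM at E15.5 and 20.7, 30.9 and 32.5 CPM at P7 (log2 fold change 0.30, SE 0.20, adjusted p = 0.259), and Eed, which reads the mark, at 42, 46.9 and 55.1 CPM at E15.5 and 40.2, 64.5 and 37.5 CPM at P7 (log2 fold change -0.02, SE 0.21, adjusted p = 0.952). Their groups overlapped and none passed the test. Suz12, the scaffold of the complex, was at 96.4, 113 and 82.1 CPM at E15.5 and 154, 172 and 135 CPM at P7 (log2 fold change 0.66, SE 0.20, adjusted p = 0.0171), and its call was lost without P7 replicate 1 (0.62), P7 replicate 2 (0.57) or E15.5 replicate 3 (0.52). Of 29 Polycomb genes tested, 7 rose, a share near the 21.6% of all genes, and none fell in the main edgeR fit, against 16.2%. The median log2 fold change was 0.02, equal to that of all genes and -0.01 by DESeq2. The number that rose was 3 without P7 replicate 1 or 2 and 2 without E15.5 replicate 3. It was 4 under RLE scaling, with a correction for exon length or within 1 counting set. DESeq2 called 2 members lower, and 2 were lower at an unadjusted p under 0.05 in edgeR. In edgeR, 1 was called lower under RLE scaling and 1 with the exon length correction. Leaving out P7 replicate 3 or E15.5 replicate 2 also gave 1. Phf19, a reader of H3K36 methylation that guides the complex (1.51 ± 0.403 to 5.81 ± 0.343 CPM), and Pcgf5, a subunit of Polycomb repressive complex 1 (2.22 ± 0.248 to 6.68 ± 1.15 CPM), rose from low levels.

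Subunits of the BAF remodelling complex, which exchanges members as progenitors become neurons, moved more often down than up. Of 19 tested, 6 fell and 2 rose, with a median of -0.11. Dpf1 (BAF45b) was at 63.2, 60.1 and 90.2 CPM at E15.5 and 14, 12.6 and 14 CPM at P7 (log2 fold change -2.40, SE 0.24, adjusted p = 3.92e-06), and Actl6b (BAF53b) at 166, 178 and 271 CPM at E15.5 and 82.4, 92.9 and 72.4 CPM at P7 (log2 fold change -1.31, SE 0.26, adjusted p = 0.00123). These are subunits of the neuronal form of the complex, and both fell in all P7 libraries. Smarce1, Smarcd1, Dpf2 and Ss18l1, the last also of the neuronal form, fell as well, the calls of Smarcd1 and Dpf2 being lost within 1 counting set. Smarcd2 rose (40.8 ± 4.99 to 95.8 ± 16 CPM), as did Ss18, a call lost in 8 settings. The ATPase Smarca4 (-0.50) did not pass the test but did in 5 alternatives. Among 9 DNA methylation genes, none fell (none by DESeq2 or at an unadjusted p under 0.05 either). Tet1 (0.92) and Tet2 (0.96), which oxidise methylcytosine, rose, a share near the 21.6% of all genes. Both calls were lost in the fit of these 2 groups alone and without P7 replicate 3 or E15.5 replicate 3, and that of Tet1 also without P7 replicate 1 or E15.5 replicate 1. The methyltransferases Dnmt1 (-0.20), Dnmt3a (-0.31) and Dnmt3b (-0.35) did not pass the test, although Dnmt3a was called lower with a correction for exon length.

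Of 18 Notch signalling genes and Id inhibitors of differentiation tested, 10 rose and 2 fell, with a median log2 fold change of 0.97. Hes1, a repressor induced by Notch, was at 1.96, 1.42 and 3.39 CPM at E15.5 and 22.6, 20.8 and 14.2 CPM at P7 (log2 fold change 3.03, SE 0.38, adjusted p = 2.58e-05). Notch2 (29.8 ± 10.4 to 68.4 ± 12.8 CPM) and Notch3 (17.7 ± 1.54 to 45.3 ± 21.8 CPM), receptors of the pathway, rose, the call of Notch3 being lost with the exon length correction and without P7 replicate 1. Id1 (12 ± 5.99 to 44.9 ± 11.3 CPM) and Id3 (8.97 ± 9.17 to 40.4 ± 18.7 CPM) rose too. Notch1 (log2 fold change 0.96, SE 0.37, adjusted p = 0.051) did not pass the test but did in 7 alternatives. Hes6, a relative that antagonises Hes1 and marks cells entering neurogenesis, was at 411, 284 and 597 CPM at E15.5 and 88.4, 70.5 and 70.3 CPM at P7 and fell (log2 fold change -2.50, SE 0.35, adjusted p = 6.36e-05). Dll1, a Notch ligand, fell from 56.8 ± 4.61 to 17 ± 0.595 CPM. Astroglia and endothelium express many of the genes that rose, and their sums rose with them (413 to 559.5 CPM at E15.5 and 2495 to 4879 CPM at P7, and 19.1 to 42.4 CPM at E15.5 and 313 to 379 CPM at P7), in a part that was not tested. The log2 fold change of Id3 went from 2.13 to 3.37 without E15.5 replicate 3.

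Ligands of the fibroblast growth factor family known from the isthmus and the embryonic cerebellum, Fgf15, Fgf8 and Fgf17, fell. Fgf15 was at 25.1, 18 and 75.4 CPM at E15.5 and 1.87, 1.49 and 1.23 CPM at P7 (log2 fold change -4.69, SE 0.64, adjusted p = 5.08e-05), Fgf8 at 4.84, 4.34 and 5.25 CPM at E15.5 and 0.351, 0.469 and 0.616 CPM at P7 and Fgf17 at 2.44, 1.84 and 4.81 CPM at E15.5 and 0.205, 0.221 and 0.770 CPM at P7. All P7 libraries were below all E15.5 libraries for Fgf15. The receptor Fgfr3, strong in astroglia (2.35 ± 0.825 to 15.8 ± 7.92 CPM), and the feedback inhibitor Spry1 (6.83 ± 0.255 to 31.2 ± 3.87 CPM) rose, and of 15 pathway genes tested 4 rose and 5 fell. Leaving out P7 replicate 1 or E15.5 replicate 3 left 2 that rose, and without E15.5 replicate 3 the log2 fold change of Fgf15 was -3.85. Without P7 replicate 3 that of Fgf17 went from -2.98 to -3.83.

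Genes tied to thyroid hormone, whose level climbs after birth, were split, while its targets Klf9 and Hr both rose. Klf9 was at 5.15, 8.35 and 3.62 CPM at E15.5 and 131, 120.4 and 114 CPM at P7 (log2 fold change 4.45, SE 0.50, adjusted p = 8.92e-06) and the corepressor gene Hr at 0.785, 0.501 and 0.341 CPM at E15.5 and 20.5, 11 and 10.2 CPM at P7 (log2 fold change 4.71, SE 0.92, adjusted p = 0.00107). Dio2, the deiodinase that activates the hormone and is made by astroglia, rose from 0.261 ± 0.214 to 12.7 ± 5.88 CPM, and Dio3, which inactivates it, fell from 1.78 ± 1.06 to 0.0984 ± 0.0497 CPM. The receptor gene Thra fell from 791 ± 178 to 427 ± 30.7 CPM. Of the 10 genes tested, 3 rose and 4 fell, and 3 to 5 fell over the alternatives. The call of Rorb (-1.38), another that fell, was lost in several settings, among them the replicate block and 1 counting set. Leaving out E15.5 replicate 1 or 3 moved Dio2 from 5.72 to 6.83 or 4.98. The astroglial sum (413 to 559.5 CPM at E15.5 and 2495 to 4879 CPM at P7) moved with Dio2 and with Fgfr3, in a part that was not tested.

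Of 20 glycolysis genes tested, 9 fell and 3 rose, with a median log2 fold change of -0.74. Ldha, which makes lactate, was at 418, 389.6 and 771 CPM at E15.5 and 195, 179 and 172 CPM at P7 (log2 fold change -1.53, SE 0.23, adjusted p = 0.00011). Pkm, the pyruvate kinase, fell from 1234 ± 359 to 562 ± 101 CPM, Pfkl, a phosphofructokinase subunit, from 157 ± 41.6 to 55.3 ± 5.76 CPM, and Aldoa, an aldolase, from 569 ± 205 to 259 ± 33.7 CPM. The members that rose were Aldoc, the aldolase of astroglia and Purkinje cells (9.07 ± 5.61 to 117 ± 42.7 CPM), Slc16a1, a lactate transporter (32.5 ± 3.74 to 129 ± 18.1 CPM), and Hk2, a hexokinase known as a hedgehog target (15.7 ± 5.38 to 45.9 ± 24.9 CPM). The astroglial sum moved with Aldoc in a part that was not tested. Several glycolytic genes have processed copies in the genome among which reads can be split or lost, so their levels are uncertain. Gapdh went from 4.96 ± 1.95 to 4.56 ± 1.00 CPM in the gene table, where it was not called, and was called lower in the transcript table. The call of Eno1 was lost without E15.5 replicate 3 (-0.87). Those of Ldhb and Pgk1 were lost there too (-0.39 and -0.58) and with the exon length correction (-0.30 and -0.67), among other settings. Over the alternatives 7 to 11 members of the list fell. Of 20 cholesterol synthesis genes, 4 fell, against 16.2% of all genes, among them Fdps (50.02 ± 18.6 to 22.1 ± 2.78 CPM) and Pmvk (82.4 ± 11.6 to 39.1 ± 12.7 CPM). Another 2 rose, against 21.6% of all genes, among them Insig1. Both rises were lost without P7 replicate 1, and that of Insig1 also within 1 counting set.

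Of 16 immediate early genes, which respond within minutes to activity or stress, 14 rose and none fell (none by DESeq2 or at an unadjusted p under 0.05 either), with a median log2 fold change of 3.91. Fos was at 6.72, 34.9 and 8.01 CPM at E15.5 and 893, 477 and 555 CPM at P7 (log2 fold change 5.31, SE 0.83, adjusted p = 0.000179). Egr1 was at 11.1, 143 and 8.32 CPM at E15.5 and 987, 803 and 789 CPM at P7 (log2 fold change 4.01, SE 0.97, adjusted p = 0.00486), and Nr4a1 at 2.57, 3.67 and 1.89 CPM at E15.5 and 102, 71.6 and 68.9 CPM at P7. In each, every P7 library was above every E15.5 library, and E15.5 replicate 2, which belongs to the other counting set, was the highest of its group. Fosb (2.32 ± 1.74 to 188 ± 64.3 CPM), Egr2 (1.03 ± 1.23 to 43.6 ± 4.96 CPM) and Egr3 (0.124 ± 0.111 to 10.7 ± 0.699 CPM) had the largest fold changes of the list. Arc (0.79) and Jund (0.79) did not pass the test, although Arc did within 1 counting set. Fos was also higher at P1 (526 ± 183 CPM, adjusted p = 0.000196) and at P14 (1003 ± 30.4 CPM, adjusted p = 4.91e-05) than at E15.5, in comparisons that share the E15.5 libraries. Leaving out E15.5 replicate 3 put Fosb at 5.80 and Egr2 at 4.99, against 6.39 and 5.74 with all libraries. Leaving out E15.5 replicate 2 put Egr2 at 7.19 and Egr3 at 7.28, and leaving out E15.5 replicate 1 put Fosb at 7.24.

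Of that list, 2 members carry the full cyclic AMP response element TGACGTCA, searched on both strands, in the 250 bases before a RefSeq start. They are Btg2 and Dusp1, both of which rose (log2 fold changes 1.62 and 1.13), and they are shown as the promoters of the list in which the letters of this element could be found. The element, in capitals, ends 159 bases before the start in Btg2 and 136 in Dusp1. Their calls were among the less stable of the list: that of Btg2 was lost without P7 replicate 1, E15.5 replicate 1 or E15.5 replicate 3, and that of Dusp1 when any library other than P7 replicate 3 was left out. The element was present in 2 of the 16 promoters that matched 12 of the genes, and in 2.35% of the matched promoters of all genes tested. It was in 1.54% of those of genes higher at P7 and in 1.91% of those of genes lower. Coordinates on GRCm38.p6 are chr1:134079156-134079405 for Btg2 and chr17:26508473-26508722 for Dusp1, both on the minus strand, written 5′ to 3′.
Btg2: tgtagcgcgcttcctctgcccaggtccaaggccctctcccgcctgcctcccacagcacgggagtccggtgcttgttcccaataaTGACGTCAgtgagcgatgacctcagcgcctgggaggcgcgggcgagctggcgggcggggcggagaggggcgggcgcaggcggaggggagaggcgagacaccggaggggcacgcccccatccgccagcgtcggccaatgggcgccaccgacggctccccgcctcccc
Dusp1: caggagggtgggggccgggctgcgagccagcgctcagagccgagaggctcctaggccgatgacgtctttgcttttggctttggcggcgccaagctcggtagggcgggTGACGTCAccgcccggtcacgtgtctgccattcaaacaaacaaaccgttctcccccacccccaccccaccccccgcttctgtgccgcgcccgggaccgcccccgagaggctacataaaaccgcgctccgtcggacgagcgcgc
A match of letters is a description of the sequence, and binding to it was not measured here.

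The list of neuronal splicing regulators also holds the repressor gene Rest and its corepressor genes Rcor1 and Rcor2. Of its 19 genes tested, 5 rose, against 21.6% of all genes, and 1 fell, against 16.2%. The median log2 fold change was 0.00, and -0.03 by DESeq2. Besides Rbfox3, Mbnl2 (31.8 ± 3.74 to 132 ± 23 CPM) and Mbnl1 (35.4 ± 3.74 to 86.6 ± 10.7 CPM), the muscleblind proteins that set postnatal exon choices, rose, with Rcor1 and Rcor2, corepressors that work with Rest. The call of Rcor2 was lost in 7 settings. Khdrbs2, a STAR family regulator, fell from 37.2 ± 7.71 to 10.5 ± 2.32 CPM. The number that fell was 4 without P7 replicate 2, 3 without E15.5 replicate 3, 2 without P7 replicate 3 and 5 with a correction for exon length. Rest itself (-0.46) did not pass the test, except without E15.5 replicate 3 or with the correction for exon length.

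**Figure D4:**
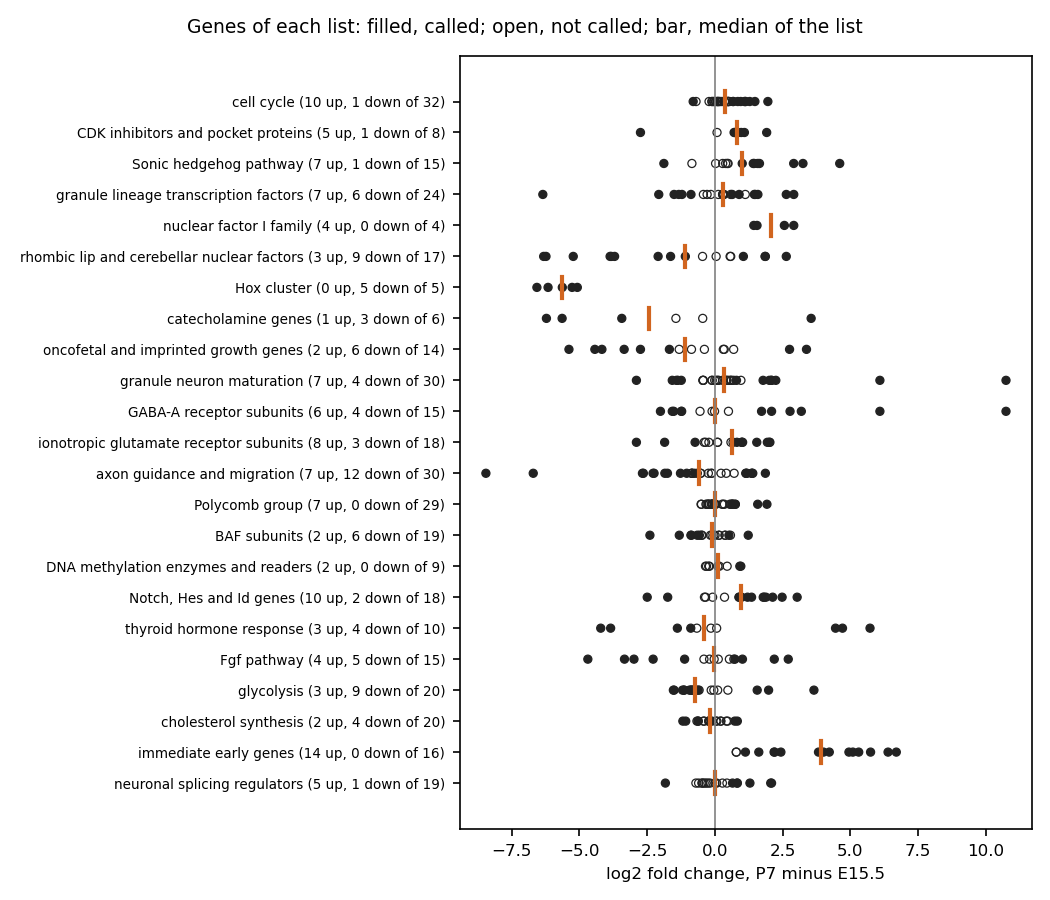
Log2 fold change of P7 over E15.5 (horizontal axis) for every tested member of each programme list, 1 point a gene, filled where the gene was called and open where it was not, with an orange bar at the median of the list. Immediate early genes (median 3.91), nuclear factor I genes (2.06) and hedgehog genes (1.01) lie to the right, rhombic lip and oncofetal genes (both -1.09) to the left, and the Polycomb list stands at 0.02.

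Values in the other groups are set beside those of these 2 ages. Igf2bp1 was at 36.9 ± 19.9 CPM at P1 and 0.475 ± 0.0884 CPM at P14 (mean ± SD, n = 3), against 91 ± 24.8 at E15.5 and 2.20 ± 1.33 at P7. Robo3 was at 9.62 ± 6.10 CPM at P1 and 0.192 ± 0.0788 at P14, so most of its fall lay between E15.5 and P1. Gli1 stood at 125 ± 45.1 CPM in the P1 libraries and at 130.5 ± 15.8 in the P7 libraries, and at 66.9 ± 7.56 and 547 ± 301 CPM in those of P14 and MB. Nfix was at 588 ± 235, 1143 ± 453 and 1052 ± 241 CPM at P1, P7 and P14. Its log2 fold change from P1 to P7 was 0.96 (adjusted p = 0.188). Atoh1 was at 47.7 ± 21 CPM at P1, 11.9 ± 1.11 at P14 and 279.8 ± 43 in MB, against 30.6 ± 7.85 at P7. Gabra6 was at 38.4 ± 55.1 CPM at P1, a mean smaller than its spread, and at 175 ± 22.9 CPM at P14. Comparisons of P1, P14 or MB with E15.5 share the E15.5 libraries with the one described here. All P1 and P14 libraries belong to the counting set that holds none of the P7 libraries. Between P7 and P1 or P14, age and counting set therefore cannot be told apart.

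**Figure D5:**
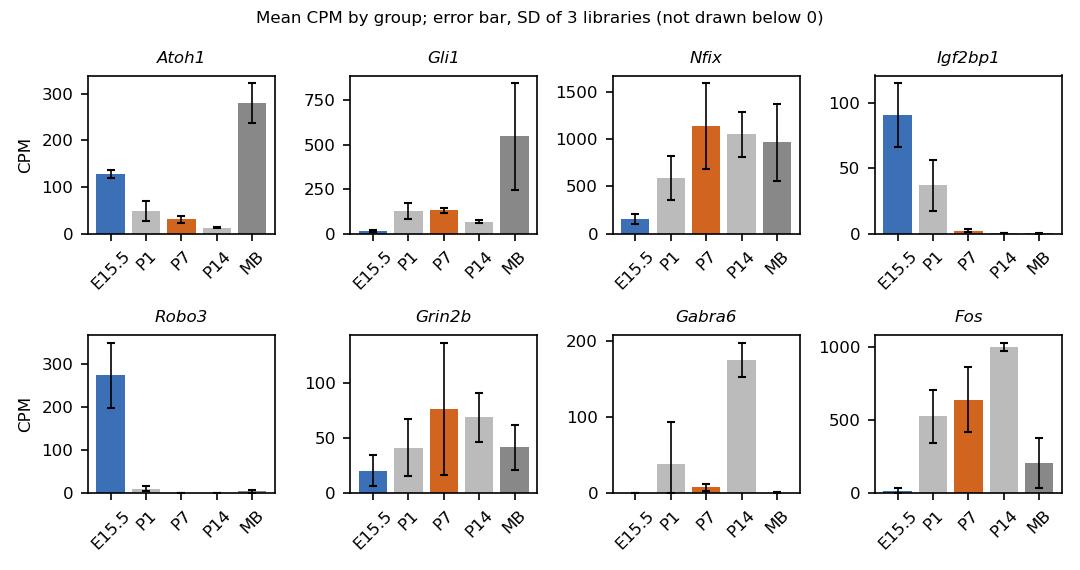
Mean level of 8 genes (vertical axes, CPM, from 0) in each of the 5 groups (horizontal axes), with error bars of 1 SD over 3 libraries. Robo3 and Igf2bp1 are highest at E15.5, Gli1 and Nfix are higher at P7 than at E15.5, and Gabra6 is at 0 in all E15.5 libraries. The P1 and P14 libraries belong to another counting set than those of P7.

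Genes that rose and genes that fell differed in structure and level. In the mm9 transcript models deposited with the counts, matched for 95.0% of genes tested, the median summed exon length was 3374 bases for genes that rose, 2294 for those that fell and 2851 for all. The median span on the chromosome was 30.1 kb, 14.9 kb and 21.9 kb in the same order. The median level over the 6 libraries was 9.4 CPM for genes that rose and 39.9 CPM for genes that fell, against 27.8 CPM for all. With a term for exon length in the fit, 3347 genes were higher and 2497 lower.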

How the data were processed

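RNA was measured by RNA-seq of poly(A) RNA in 15 libraries, 3 in each of 5 groups, of which the 6 of E15.5 and P7 are compared. The deposited tables hold raw read counts per gene, per transcript and per transcript start model. Per the submitters' processing notes, Trimmomatic, TopHat, StringTie, HTSeq and the build mm9 were used, with no roles or versions stated, and the strand setting of the counting is not given in the sources used here. The 5 summary lines of each gene file were left out. Totals per library were 23728402, 12597472 and 43443132 counts at E15.5 and 34066422, 36672071 and 26291590 at P7, and replicates differed beyond sampling noise. Alignments that were not unique made up 32.5%, 32.3% and 42.2% of each gene file at E15.5, summary lines included. At P7 they made up 26.7%, 28.9% and 24.7%, so the groups did not overlap. The part of this difference in the results was not tested.

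Genes were tested with edgeR 4.0.16 (R 4.3.3), with TMM scaling, filterByExpr (count minimum 10, total minimum 15) and the quasi-likelihood test over all 15 libraries (10 residual degrees of freedom), as P7 minus E15.5, called at a Benjamini-Hochberg adjusted p under 0.05. The SE of a fold change is its size over the root of the F statistic. The script was tested on simulated data. CPM are scaled by TMM. Ratios of scaled counts carry exact 95% intervals for counting error only, and a floor of 3 counts over a group bounds a ratio to 0. A symbol was found for 20358 of the 21889 genes counted. Gene counts of Tsnax were at most 0.273% of its transcript count in E15.5 replicates 1 and 3, the P7 libraries and 1 MB library. In the others they were at least 92.4%. From this gene alone libraries were placed in 2 inferred counting sets, which E15.5 spans. The cause of the split is not stated in the sources used here.

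Named genes were a fixed selection, the 12 called genes with the largest fold change in each direction (mean of at least 5 CPM, no overlap, no predicted or pseudogene name) and up to 3 called members in each direction of 23 programme and 11 marker lists, which share genes. Members and lists were chosen with earlier results of these data known. Alternatives were DESeq2 1.42.0, RLE scaling, other filters, these groups alone, a replicate block, counting set, exon length, the transcript and start model tables, and leaving out each library. Some list members are counted but not reported by name here, and others are not analysed here.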

Additional observations from a re-analysis of the deposited data

How the results depend on the processing

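Over 17 alternatives the number called higher lay between 2535 and 3444 and the number called lower between 1800 and 3011, against 3295 and 2469. The 3444 are transcript start models, and the most genes called higher were 3413. Leaving out 1 library gave 2535 to 3224 higher and 1800 to 2729 lower, the lowest without E15.5 replicate 3. The numbers passing 2-fold were 2013 to 2585 (start models, and up to 2531 for genes) and 982 to 1531. DESeq2 called 3413 and 3011. Of 159 named genes that were called, 141 kept their call in each of 16 alternatives and 0 were called in the other direction. Many of these genes were named because they were called or had the largest fold changes here, so their stability does not stand for all calls. Of all 5764 calls, the share kept ran from 71.2% without E15.5 replicate 3 to 98.7% by DESeq2. It was 78.0% within 1 counting set and 78.7% without P7 replicate 1. With the transcript counts, 3 calls were made in the other direction. Same-numbered libraries had correlations of deviations of -0.10, 0.0078 and -0.26, and none was closest to its own number. Deviations from a mean of 3 libraries are not independent, so these values cannot settle whether replicate numbers mark a pairing. With the replicate number as a block, 3139 genes were higher and 2225 lower. The direction of uncalled genes turned in some alternatives. With 1 library left out, Barhl1 lay between -0.34 and 0.028, Eed between -0.31 and 0.13, and Mycn between -0.021 and 0.058 on the log2 scale. Eed was at 0.016 under the stricter filter, 0.0022 in the transcript table and 0.099 with the exon length correction, which put Pax6 at -0.0404. List counts moved by over 1.5 times in a few lists besides those given above. Cell cycle genes called lower were 2 within 1 counting set instead of 1, hedgehog genes called lower 2 by DESeq2, BAF genes called higher 1 instead of 2 in 7 alternatives, Fgf genes called lower 3 instead of 5 under the stricter filter, and cholesterol genes called lower 2 instead of 4 within 1 counting set. Choroid plexus markers called higher were 5 instead of 1 within 1 counting set. The causes were not tested. Genes that failed the filter on low counts were not tested at this depth.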

Other observations

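Values of some neuropeptide and POU homeobox genes outside the lists follow, and those beyond the naming rule were chosen after their values were seen. Sst, the peptide somatostatin, was at 72.8, 63.0 and 119 CPM at E15.5 and 0.731, 0.855 and 1.04 CPM at P7. Tac1, which encodes substance P, was at 3.58, 1.92 and 4.67 CPM and then at 0.117, 0.0552 and 0.0770 CPM (log2 fold change -5.30, adjusted p = 0.000192 by edgeR). Cck (-2.11) was called lower, a call lost without E15.5 replicate 3 (-1.26). The call of Npy (-1.23) was lost in 7 alternatives, among them no filter on low counts, the replicate block, the exon length correction (-0.63) and the leaving out of P7 replicate 1 or 3 or E15.5 replicate 1 or 3. Penk (-0.72, adjusted p = 0.294) did not pass the test. Pou4f1, a factor of sensory and some brainstem neurons, was at 24.1, 2.84 and 4.81 CPM at E15.5, with replicate 1 far above the others, and at 1.40, 1.60 and 1.35 CPM at P7. Its call (-2.87) was lost without that replicate (-1.42). Pou4f3, of the same family, was at 5.93, 0.418 and 0.945 CPM at E15.5 and had no count at P7, where it was at least 78.0-fold lower if 3 counts are taken as the limit for the group. E15.5 replicate 1 was highest for Pou4f1, Pou4f2 and Pou4f3 alike.

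The embryonic globin gene Hbb-y had 239 counts over the E15.5 libraries and none over the P7 libraries, at least 105-fold lower at P7. Its log2 fold change went from -9.17 to -7.84 without E15.5 replicate 3, the library with the highest erythroid sum of its group (53.2 CPM against 13 and 13.4 CPM). The haem enzyme gene Alas2 was called higher at P7, as was the adult gene Hbb-bt (3.65). The value of Hbb-bt ran from 2.77 without P7 replicate 1 to 5.81 without E15.5 replicate 3, and its call was lost in the transcript table (1.63). The Y-linked genes were present in all 6 libraries. Of these, Ddx3y was called higher at P7 (log2 fold change 0.74, adjusted p = 0.0295), with groups that overlapped. That call was lost in 8 alternatives: these groups alone, 1 counting set, the counting set term, the exon length correction, and without P7 replicate 1 or 3 or E15.5 replicate 1 or 2. Uty (-0.28), Kdm5d (-0.17) and Eif2s3y (0.38) did not pass the test.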
